A study of Mus musculus with 6 samples.

Results

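Heme breakdown and iron handling were followed in the ischemic mouse retina through 10 genes: Hmox1, Hmox2, Blvra, Blvrb, Tfrc, Steap3, Slc11a2, Fth1, Slc40a1 and Cp. They are 10 of the 32285 genes in the count table, and all 10 were among the 20021 genes tested, those whose counts in the 6 libraries added up to 10 or more. The genes were selected on their function and on their level in OIR-CIH against OIR-Norm libraries of these same data. The comparison of the 2 groups is therefore given for them as a description, with no test, and tests are kept for 63 other genes of heme and iron metabolism. Those 63 were listed by function, but also with earlier results of these data known.

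The study asked how chronic intermittent hypoxia (CIH), the oxygen swings of sleep apnea, acts on a retina that is already ischemic. All pups were wild-type C57BL/6J mice that spent PN8 to PN13 (postnatal days) with their mothers in 75% O2, the oxygen-induced retinopathy (OIR) model, in which the capillaries of the central retina are lost. OIR-CIH pups then had 10 h of CIH each day, 266 cycles of 135 s in which O2 fell from 20.95% to 5% and returned, whereas OIR-Norm pups received the same gas flow at a constant O2 level. Retinal RNA was taken at PN18 from 3 OIR-CIH and 3 OIR-Norm samples, and poly(A) RNA was sequenced with a stranded kit. The series holds no retina without prior hyperoxia, so that neither group is an untreated one.

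The total count per library was between 26289905 and 38010151. Values are in CPM, the count of a gene relative to its library's total after scaling by the trimmed mean of M-values (TMM), so that libraries of unlike depth can be set side by side, and a log2 fold change is OIR-CIH minus OIR-Norm as fitted by edgeR. The photoreceptor marker Rcvrn was abundant in all 6 libraries, at 1459.8 to 2247 CPM. OIR-Norm replicate 2 stood apart in 4 lens genes, with a sum of 356 CPM against 9.45 to 55.2 CPM in the other 5 libraries. Xist (298 to 1653 CPM) and 4 Y-linked genes (57.3 to 184 CPM in sum) were both present in each library, which RNA of 1 animal would not give. The study's methods give 3 eyes per group, which would be 1 eye per library, and this does not match RNA of both sexes in each. The n used here thus counts libraries, and how many animals each one holds is not known. If the libraries do not come from separate animals, the spread between them may be technical.

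Heme oxygenases open the heme ring and release biliverdin, carbon monoxide and iron. Biliverdin reductases turn biliverdin into bilirubin, while the freed iron joins the iron that cells import bound to transferrin, and is either used, stored inside ferritin or passed out through ferroportin. In the retina iron is a cofactor of the visual cycle and of photoreceptor metabolism, and loose iron promotes oxidative damage to photoreceptors. Several of these transcripts are steered by iron itself through iron-responsive elements, short hairpins in untranslated regions (UTRs) that bind iron regulatory proteins when iron is scarce. A hairpin in the 5' UTR then holds back translation, which RNA-seq does not measure, and hairpins in the 3' UTR protect the transcript from decay.

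The hairpins are shown because, in a gene that holds one, its place in the 3' or 5' UTR bears on whether iron can act on transcript level or on translation. They do not sort the genes without a match. The search asked for an unpaired C, a stem of 5 pairs with G-T pairs allowed and a CAGTGN loop that does not end in G, in the UTRs of GENCODE M21 protein-coding transcripts (mouse build GRCm38). Loops are in capitals.
Tfrc, 3' UTR, chr16:32631220-32631246, plus strand: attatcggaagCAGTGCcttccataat
Tfrc, 3' UTR, chr16:32631599-32631625, plus strand: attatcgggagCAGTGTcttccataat
Tfrc, 3' UTR, chr16:32631664-32631690, plus strand: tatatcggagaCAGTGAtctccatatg
Tfrc, 3' UTR, chr16:32631711-32631737, plus strand: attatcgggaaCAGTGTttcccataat
Fth1, 5' UTR, chr19:9982733-9982759, plus strand: tcctgcttcaaCAGTGCttgaacggaa
Ftl1, 5' UTR, chr7:45459780-45459806, minus strand: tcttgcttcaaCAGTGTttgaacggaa
Alas2, 5' UTR, chrX:150547459-150547485, plus strand: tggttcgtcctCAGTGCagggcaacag
Of the 10 genes, 3 held a match: Tfrc with 4 in its 3' UTR, Fth1 with 1 in its 5' UTR and Slc40a1 with 1 in its 5' UTR. Among the 63 other genes, Ftl1 (ferritin light chain) and Alas2 (the erythroid form of the first heme synthesis enzyme) held 1 each. For comparison, 121 of 21901 protein-coding genes (0.552%) held at least 1 match. A match is a description of these letters, and no match says only that this pattern was not found.

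Hmox1, the inducible heme oxygenase, had the lowest log2 fold change of the 10 genes. Hmox1 (ENSMUSG00000005413, chr8:75093621-75100589, plus strand) had 8.20, 9.15 and 8.34 CPM in the OIR-CIH libraries and 39.2, 42.5 and 35.4 CPM in the OIR-Norm libraries. The groups lay far apart, with 26.3 CPM between the highest OIR-CIH and the lowest OIR-Norm library. The mean was 8.56 ± 0.515 CPM (SD, n = 3) against 39.0 ± 3.53 CPM (SD, n = 3), which is 4.56-fold lower, with a log2 fold change of -2.19 (SE 0.10). Of the 14800 genes with a mean of at least 1 CPM, 12, with Hmox1 among them, had a log2 fold change as low. These counts do not tell fewer cells of a type from less RNA per cell, here or for any gene below.

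Hmox2, the constitutive heme oxygenase of neurons, differed little between the groups. Hmox2 (chr16:4726361-4766742, plus strand) had 26.9, 26.3 and 28.7 CPM in OIR-CIH and 29.0, 30.7 and 29.0 CPM in OIR-Norm. The groups did not overlap but came within 0.270 CPM of each other, and the mean was 7.66% lower in OIR-CIH (log2 fold change -0.11). Its exons overlap those of Cdip1 on the opposite strand, and the strand setting used for counting is not given in the sources used here.

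With Hmox1 far lower and Hmox2 near its OIR-Norm level, the heme oxygenase with more transcript per kilobase was not the same in the 2 groups. Per kilobase of transcript, Hmox1 made up 25.2%, 27.7% and 24.2% of the summed Hmox1 and Hmox2 level in OIR-CIH and 59.8%, 60.4% and 57.4% in OIR-Norm. The mean share was 25.7% ± 1.81 (SD, n = 3) against 59.2% ± 1.62 (SD, n = 3). The inducible enzyme thus had the higher level per kilobase in every OIR-Norm library and the lower one in every OIR-CIH library.

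**Figure D1:**
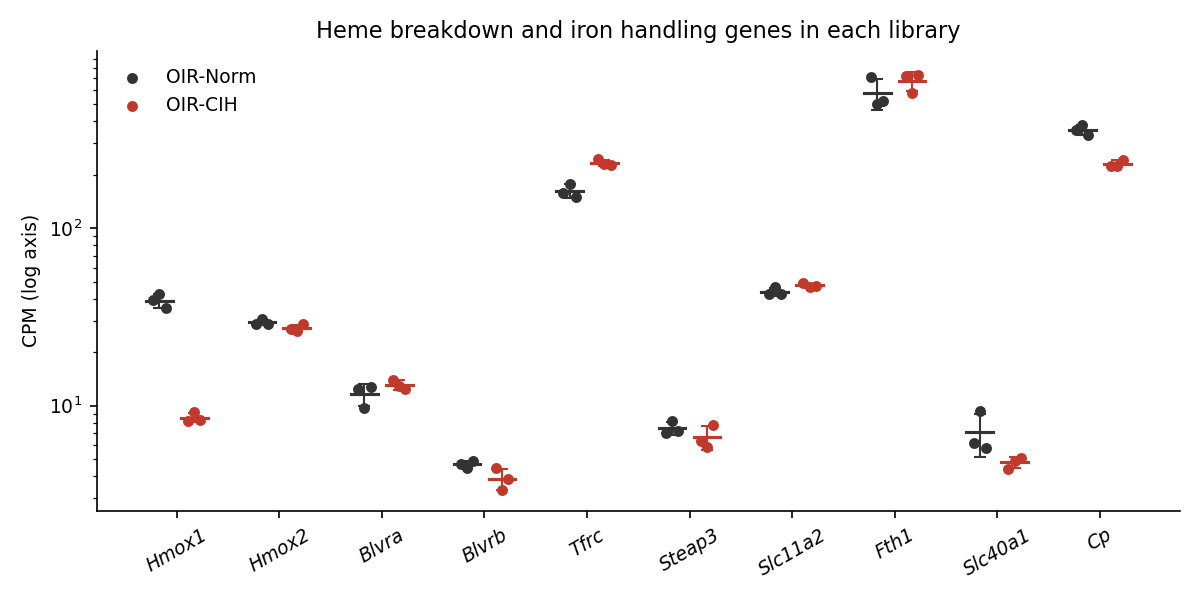
CPM (log axis) of the 10 genes in each library, OIR-Norm in grey and OIR-CIH in red. Points are the 3 libraries of a group, the short line is their mean and the bar is the SD. Hmox1 and Cp sit lower and Tfrc higher in all 3 OIR-CIH libraries with a clear gap, and Fth1, Blvra, Steap3 and Slc11a2 overlap between the groups.

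The 2 biliverdin reductase genes showed small differences of opposite sign. Blvra (biliverdin reductase A, chr2:127070665-127097084, plus strand) had 14.0, 12.9 and 12.4 CPM in OIR-CIH and 12.5, 9.72 and 12.7 CPM in OIR-Norm, and the groups overlapped (log2 fold change 0.17, SE 0.13). Blvrb (biliverdin reductase B, chr7:27447978-27466144, plus strand), which also reduces flavins, had 4.43, 3.36 and 3.86 CPM in OIR-CIH and 4.71, 4.46 and 4.90 CPM in OIR-Norm. Its groups were separated by only 0.0208 CPM (log2 fold change -0.27, SE 0.16), on counts of 97 to 156 per library. Per kilobase, Blvra exceeded Blvrb in every library, by a ratio of 2.03 ± 0.209 (SD, n = 3) for OIR-Norm and 2.78 ± 0.305 (SD, n = 3) for OIR-CIH.

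Among the genes of iron import, Tfrc was the only one of the 3 with a clear gap between the groups. Tfrc (transferrin receptor 1, ENSMUSG00000022797, chr16:32608920-32632794, plus strand), which takes up iron-loaded transferrin and carries the 4 hairpins shown for its 3' UTR, had 244, 230 and 226 CPM in OIR-CIH. In OIR-Norm it had 158, 178 and 150 CPM, so that all OIR-CIH libraries lay above all OIR-Norm libraries, by at least 48.1 CPM. The mean was 233 ± 9.67 CPM (SD, n = 3) against 162 ± 14.3 CPM (SD, n = 3), 44.1% higher, with a log2 fold change of 0.53 (SE 0.08). That log2 fold change lay just over the minimum of 0.5 used for a call, and it was 0.49 without OIR-CIH replicate 1 and 0.47 without OIR-Norm replicate 3.

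The genes that act on iron inside the endosome overlapped between the groups. Steap3 (chr1:120190757-120272705, minus strand), the reductase of transferrin-borne iron, had 6.32, 5.82 and 7.78 CPM in OIR-CIH and 7.01, 8.21 and 7.16 CPM in OIR-Norm (log2 fold change -0.16, SE 0.15). Slc11a2 (divalent metal transporter 1, chr15:100387898-100425072, minus strand), which moves the reduced iron into the cytosol, had 48.9, 46.6 and 47.2 CPM in OIR-CIH and 42.5, 46.7 and 42.3 CPM in OIR-Norm. Its lowest OIR-CIH library lay just under its highest OIR-Norm library (log2 fold change 0.12, SE 0.07). Its exons overlap the opposite-strand gene Gm5475.

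Fth1, the ferritin heavy chain, which oxidises iron for storage, was the most abundant of the 10 genes and its groups overlapped. Fth1 (chr19:9980598-9985098, plus strand) had 717, 579 and 734 CPM in OIR-CIH and 709, 500 and 522 CPM in OIR-Norm, with a log2 fold change of 0.23 (SE 0.14). The 3 libraries with the highest Fth1 were OIR-CIH replicates 1 and 3 and OIR-Norm replicate 1, and the same 3 libraries were highest for Trf (transferrin) and Pcbp2 (an iron chaperone of ferritin), genes picked for this after their values were seen. What part the makeup of these libraries has in Fth1 was not tested. Without OIR-Norm replicate 1 the log2 fold change was 0.40. Processed copies of ferritin genes are spread through the genome, so that reads of Fth1 may be split or shared with them.

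Set against the light chain of the same shell, Fth1 gave a narrower picture. The ratio of Fth1 to Ftl1 in CPM was 2.95, 2.75 and 2.72 in OIR-CIH and 2.46, 2.01 and 2.19 in OIR-Norm, and the groups did not overlap. The ratio of Fth1 to Tfrc, storage against import, was 3.59 ± 0.841 (SD, n = 3) for OIR-Norm and 2.90 ± 0.365 (SD, n = 3) for OIR-CIH and did overlap.

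On the export side both genes had lower means in OIR-CIH. Cp (ceruloplasmin, ENSMUSG00000003617, chr3:19957054-20009145, plus strand), the copper enzyme that oxidises iron as it leaves the cell and that Müller glia make in the retina, had 225, 225 and 243 CPM in OIR-CIH and 357, 381 and 337 CPM in OIR-Norm. The groups lay 93.8 CPM apart, and the mean was 231 ± 10.5 CPM (SD, n = 3) against 358 ± 21.9 CPM (SD, n = 3). This is 35.5% lower, with a log2 fold change of -0.63 (SE 0.08). A stretch of its exons overlaps Hps3 on the opposite strand. Of 6 Müller glia markers 4 were higher and 2 lower in OIR-CIH, with overlapping sums of 3238 to 3936 CPM in OIR-CIH and 3214 to 3514 CPM in OIR-Norm. Glul alone made up 1601 to 2071 CPM of these sums. The groups did not overlap for 1 lower and 1 higher marker, neither of them called. Aqp4 was lower in OIR-CIH (76.0 ± 2.56 against 94.2 ± 4.47 CPM, SD, n = 3, log2 fold change -0.31, edgeR adjusted p = 0.103). Rlbp1 was higher (519 ± 32.8 against 410 ± 24.7 CPM, SD, n = 3, log2 fold change 0.34, edgeR adjusted p = 0.164). The part of these cells in the value of Cp was not tested.

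Slc40a1 (ferroportin, chr1:45908068-45926523, minus strand), the iron exporter, had 4.39, 4.89 and 5.08 CPM in OIR-CIH and 6.13, 9.30 and 5.81 CPM in OIR-Norm. The groups were 0.731 CPM apart, with a log2 fold change of -0.56 (SE 0.18). OIR-Norm replicate 2, the library with the lens signal, had the highest value, and it was also the highest of the 6 for the endothelial gene Cdh5 (20.0 CPM against 4.96 to 10.6 CPM). Without that library the log2 fold change was -0.32. What part the lens or vascular RNA has in this value was not tested. The ratio of import to export, Tfrc over Slc40a1 in CPM, was 55.6, 47.0 and 44.5 in OIR-CIH and 25.8, 19.1 and 25.8 in OIR-Norm.

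**Figure D2:**
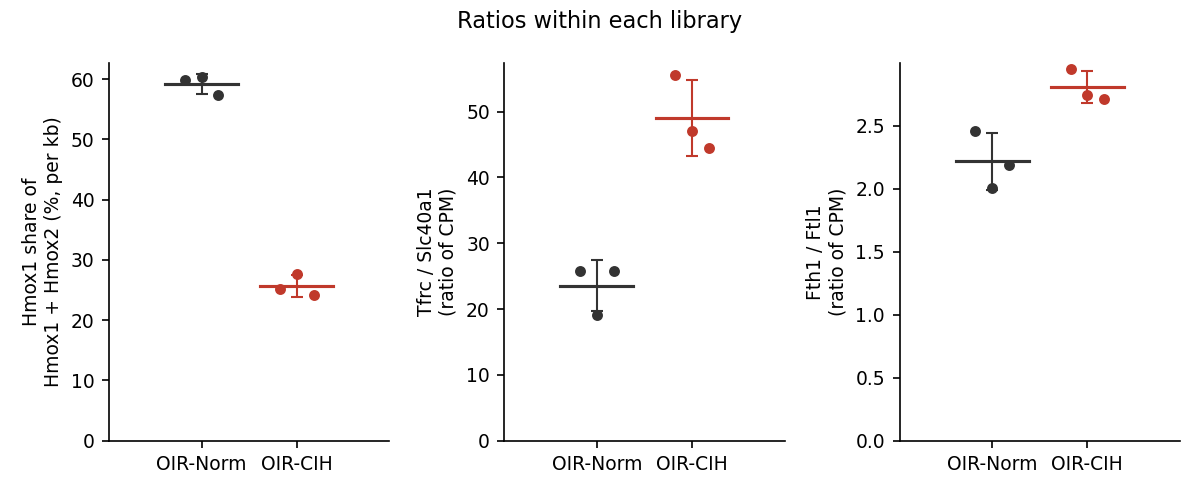
Ratios within each library, OIR-Norm in grey and OIR-CIH in red, with the mean as a line and the SD as a bar. The left panel gives Hmox1 as a percentage of Hmox1 plus Hmox2 per kilobase, the middle panel Tfrc over Slc40a1 and the right panel Fth1 over Ftl1, both as ratios of CPM. None of the 3 ratios shown overlaps between the groups, and each includes a gene selected on this contrast. The ratio of Fth1 to Tfrc, which did overlap, is not drawn.

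Read over the 10 genes, 6 had a lower and 4 a higher fitted level in OIR-CIH. Their median log2 fold change was -0.14, beside -0.0028 for all genes tested. By the thresholds used for all genes (a change of more than 0.5 in log2 fold and an edgeR adjusted p under 0.05), Hmox1 and Cp were called lower and Tfrc higher, 3 of 10, where 0.315% of all genes tested were called, 0.215% lower and 0.0999% higher. The libraries of the 2 groups did not overlap for 5 genes that were lower (Hmox1, Hmox2, Blvrb, Slc40a1 and Cp) and for Tfrc, which was higher. Over all genes tested this held for 18.4%, of which 9.26% were lower and 9.12% higher. Since the selection used this contrast, nothing is drawn from these counts.

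The order of the levels per kilobase of transcript is a description of which steps are most represented in the retinal RNA. In OIR-Norm the order ran from Fth1 (386 CPM per kilobase) through Cp (78.5), Tfrc (33.1), Hmox1 (24.9), Hmox2 (17.1), Slc11a2 (14.5), Blvra (10.0) and Blvrb (4.93) to Steap3 (2.60) and Slc40a1 (2.10). Only the last pair of neighbours overlapped between libraries. In OIR-CIH Fth1 (453 CPM per kilobase) again came first, Cp (50.6) and Tfrc (47.7) overlapped, and so did Hmox2 (15.8) and Slc11a2 (15.7). Hmox1, at 5.46 CPM per kilobase, stood at rank 7 in OIR-CIH and rank 4 in OIR-Norm. The length used was that of the transcript with the longest coding sequence. With the merged length of all exons, the places of Cp and Tfrc in OIR-CIH were exchanged and the other places stayed.

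The other genes of heme and iron metabolism were tested, and 2 of 62 passed the thresholds, both lower in OIR-CIH. This is 3.23%, beside 0.315% of all genes tested. The remaining gene, Ftmt, had no count in any library. Since the lists were drawn up with earlier results of these data known, the share called is not independent of the contrast. Slc25a37 (mitoferrin 1), which carries iron into mitochondria for heme and iron-sulphur cluster synthesis, had 37.6, 36.5 and 36.4 CPM in OIR-CIH and 55.0, 69.4 and 62.1 CPM in OIR-Norm. Its groups lay apart, and it fell by 0.76 on the log2 scale (SE 0.09, edgeR adjusted p = 0.00184). Steap4, a metalloreductase known from inflamed tissue, had 0.196, 0.243 and 0.318 CPM in OIR-CIH and 0.811, 1.61 and 1.07 CPM in OIR-Norm, a log2 fold change of -2.15 (SE 0.38, edgeR adjusted p = 0.0284). It rests on few counts, and its adjusted p ran from 0.0509 to 0.179 when any single library other than OIR-Norm replicate 1 was dropped, so that the call was lost in 5 of 6 such fits, while the log2 fold change stayed between -2.38 and -1.85 over the 6. With limma on log2(CPM + 0.5), a scale that shrinks changes of low genes, it was -1.12.

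Of all 62 genes, 26 had lower and 36 higher fitted levels, the median log2 fold change was 0.03, and 47 lay within 0.2 of zero on the log2 scale. The libraries of the groups did not overlap for 11 of them (17.7%, beside 18.4% of all genes tested). An unadjusted p under 0.05 was reached by 8 genes in edgeR (12.9%, beside 13.2% of all genes tested), a share that also stands behind the counts of each list given next. DESeq2 and limma, run as alternatives, called the same 2 genes.

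None of the 12 heme synthesis genes was called by edgeR, and 1 had an unadjusted p under 0.05. Fech, the ferrochelatase that inserts iron into the ring, had a log2 fold change of 0.09 (SE 0.08), and Urod and Ppox, which act before it, had 0.0082 and 0.05. The largest log2 fold change of this list in either direction was 0.23. Among 12 genes of heme transport, scavenging and breakdown, 0 were called by edgeR and 3 had an unadjusted p under 0.05. Por, the reductase that feeds electrons to heme oxygenase, had 0.08 (SE 0.09), the heme transporter Slc48a1 had 0.10 (SE 0.09), and Lrp1, a receptor of hemopexin-bound heme, had -0.23 (SE 0.10, edgeR adjusted p = 0.37). Flvcr2, a heme and choline transporter named here after its values were seen, had 12.7, 8.08 and 7.54 CPM in OIR-CIH and 7.59, 5.65 and 4.96 CPM in OIR-Norm, overlapping groups with a log2 fold change of 0.63 (SE 0.21, edgeR adjusted p = 0.27). Hp, haptoglobin, had only 1 to 7 counts in any library. The same list holds the regulators through which heme and oxidants act on Hmox1, named here after their values were seen: Bach1, its repressor, had a log2 fold change of -0.05 (SE 0.08), and Nfe2l2, its activator, had -0.0040 (SE 0.08). These are RNA levels, and the activity of the Bach1 and Nfe2l2 proteins was not measured.

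In iron uptake and reduction, Steap4 was the 1 gene called of 11, and 7 of the 11 had lower fitted levels. An unadjusted p under 0.05 was reached in edgeR by 2 of the 11. Trf had 0.04 (SE 0.13), the iron importer Slc39a14 had -0.19 (SE 0.10) and the metalloreductase Steap2 had -0.13 (SE 0.07). Slc11a1, a macrophage iron transporter named after its values were seen, had 1.81, 0.797 and 2.22 CPM in OIR-CIH and 4.02, 3.05 and 2.29 CPM in OIR-Norm. Its groups did not overlap and its log2 fold change of -0.94 (SE 0.31) was larger in size than that of Slc25a37, but it did not pass the test (edgeR adjusted p = 0.271). Of 4 storage and chaperone genes tested, 0 were called by edgeR and 0 had an unadjusted p under 0.05: Ftl1 had -0.10 (SE 0.10), Pcbp1 0.19 (SE 0.09) and Pcbp2 0.18 (SE 0.11). The other export oxidase of the retina, Heph (hephaestin), had -0.18 (SE 0.11, edgeR adjusted p = 0.503), and Hephl1 was near the detection floor at a mean of 0.0503 CPM. Neither was called, and 0 of these 2 had an unadjusted p under 0.05.

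The iron regulatory proteins that bind the hairpins shown for Tfrc and ferritin were not called at the RNA level. Aco1 (iron regulatory protein 1) had a log2 fold change of 0.03 (SE 0.08), Ireb2 (iron regulatory protein 2) had -0.15 (SE 0.07, edgeR adjusted p = 0.385), and Fbxl5, which marks the latter for degradation, had 0.08 (SE 0.09). Of 9 genes of iron sensing and hormonal control, 0 were called by edgeR and 0 had an unadjusted p under 0.05. In the mitochondrial list Slc25a37 was the 1 gene called of 12, and Isca1, which acts in iron-sulphur cluster assembly, had 0.06 (SE 0.09). Of these 12 genes, 8 had higher and 4 lower fitted levels, and 2 had an unadjusted p under 0.05 in edgeR.

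**Figure D3:**
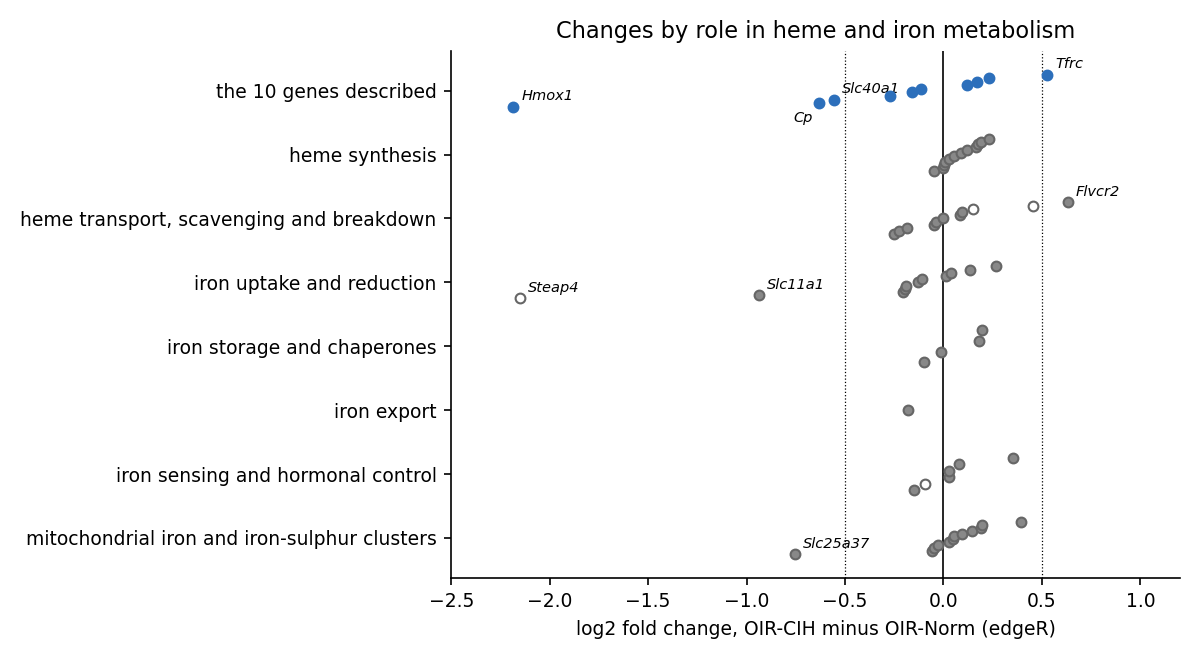
Fitted log2 fold change (OIR-CIH minus OIR-Norm, horizontal axis) of the 10 genes described (blue) and of the other heme and iron genes (grey), in rows by role. Hollow points have a mean under 1 CPM, the dotted lines mark 0.5 in either direction, names are given beyond them, and 5 genes with a mean under 0.5 CPM are not drawn. Of the grey points only Slc25a37 and Steap4 passed the thresholds, and Slc11a1 and Flvcr2 (edgeR adjusted p = 0.271 and 0.27) did not.

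Markers of cells rich in heme or iron were read beside these values. Hemoglobin and other erythroid genes (6 of 7 were in the table) summed to 53.8 to 73.1 CPM in OIR-CIH and 50.4 to 112 CPM in OIR-Norm, ranges that overlapped, with 3 lower and 3 higher and 0 called by edgeR. Microglia and macrophage markers, of cells that recycle heme, summed to 116 to 132 CPM in OIR-CIH and 143 to 163 CPM in OIR-Norm. These ranges did not overlap, 10 of the 11 markers were lower, and 1, Mpeg1, was called (log2 fold change -0.72, edgeR adjusted p = 0.0131). The sum moved in the direction of Hmox1, Cp and Slc40a1, and its part in their values was not tested. Endothelial markers summed to 193 to 220 CPM in OIR-CIH and 195 to 239 CPM in OIR-Norm, and pigment epithelium markers to 153 to 240 CPM and 97.9 to 169 CPM, with overlapping ranges in each case. Kdr alone made up 165 to 179 CPM of the endothelial sums. All 5 endothelial markers had lower fitted levels in OIR-CIH, each with overlapping groups, and 0 were called by edgeR. Of 5 pigment epithelium markers 3 were higher and 2 lower, with 0 called by edgeR. Rpe65, Lrat and Rgr had log2 fold changes of 0.65, 0.80 and 0.59, and Best1 and Tyr had -0.24 and -0.03. Only for Lrat did the groups not overlap.

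Genes with a profile over the 6 libraries most like that of Hmox1 or Cp were found by the root mean square (RMS) difference of log2(CPM + 0.5) after subtracting the mean of each gene, among 14799 genes with a mean of at least 1 CPM. For Hmox1 they were Bcl3 (RMS difference 0.188), a nuclear partner of NF-kappaB, Edn2 (0.232), an endothelin made by injured photoreceptors, and Lad1 (0.308), where the median of all genes was 1.08. Edn2 had 3.53, 4.54 and 2.91 CPM in OIR-CIH and 14.8, 15.2 and 19.4 CPM in OIR-Norm, so that the groups lay apart as for Hmox1. Bcl3 had 1.57, 1.42 and 1.27 CPM and 5.71, 7.26 and 5.78 CPM in the same order. For Cp they were Pprc1 (0.0558), Stat3 (0.0616), the transcription factor of the gp130 cytokine receptors, and the macrophage gene Mpeg1 (0.0646), where the median was 0.347. Stat3 had 96.4, 98.6 and 97.1 CPM in OIR-CIH and 157, 163 and 133 CPM in OIR-Norm. Likeness over 6 libraries in 2 groups is mostly that of the group difference.

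**Figure D4:**
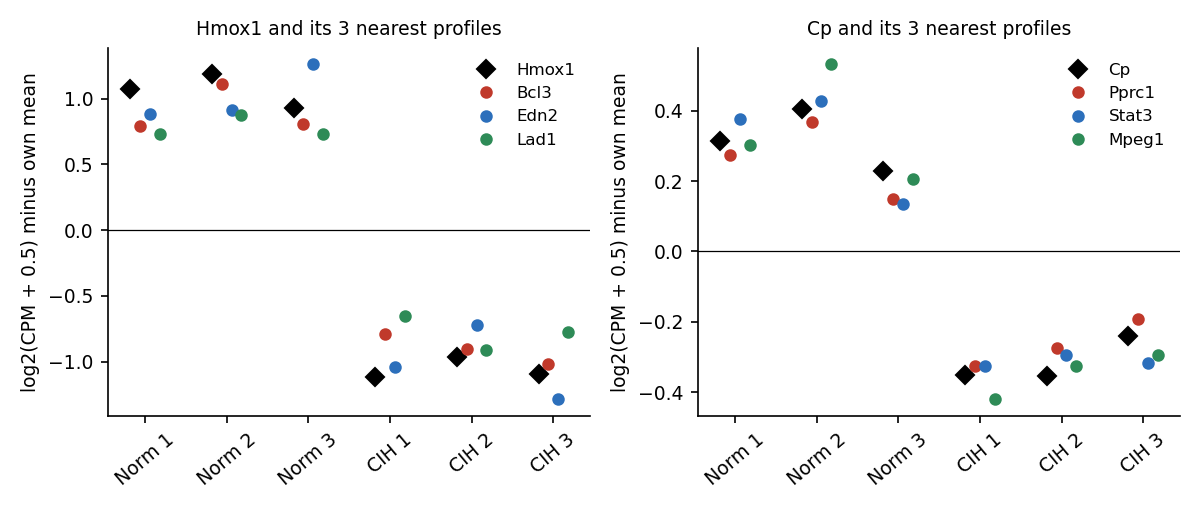
Profiles over the 6 libraries of Hmox1 (left) and Cp (right), as black diamonds, with the 3 genes nearest to each as coloured points. The vertical axis is log2(CPM + 0.5) minus the mean of the gene, and the horizontal axis the libraries. All 4 genes of each panel lie above their mean in the 3 OIR-Norm libraries and below it in the 3 OIR-CIH libraries.

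Promoter windows of RefSeq (GRCm38.p6) were at hand for 7 of the 10 genes, without Hmox1, Slc40a1 and Slc11a2. The 250 bases before the first listed transcript start are shown for Tfrc and Cp, the members with windows whose groups lay farthest apart in CPM, with the motifs found in capitals.
Tfrc, chr16:32608646-32608895, plus strand: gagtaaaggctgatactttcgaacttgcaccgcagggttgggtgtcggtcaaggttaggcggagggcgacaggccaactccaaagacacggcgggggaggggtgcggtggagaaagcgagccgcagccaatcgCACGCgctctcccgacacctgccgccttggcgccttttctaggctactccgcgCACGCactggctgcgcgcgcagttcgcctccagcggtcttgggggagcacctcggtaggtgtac
Cp, chr3:19956804-19957053, plus strand: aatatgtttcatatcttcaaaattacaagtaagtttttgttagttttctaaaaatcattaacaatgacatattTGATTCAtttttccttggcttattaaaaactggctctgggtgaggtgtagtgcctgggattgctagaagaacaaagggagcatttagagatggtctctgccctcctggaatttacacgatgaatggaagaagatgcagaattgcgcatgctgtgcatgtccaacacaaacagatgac
The motifs searched on both strands, with overlaps counted, were the antioxidant response element TGACNNNGC, the core of the hypoxia response element ACGTG or GCGTG, the STAT site TTCNNNGAA and the AP-1 site TGANTCA. In this window Tfrc held 2 hypoxia cores, read on the opposite strand, which begin 117 and 64 bases before the start, and Cp held 1 AP-1 site 177 bases before it. Of the 16 windows of the 7 genes, 6 held a hypoxia core, and they belong to 4 genes (Tfrc, Blvrb, Fth1 and Steap3). An antioxidant element was found in 1 window (Blvra), an AP-1 site in 1 (Cp) and a STAT site in 0. Over all 32851 windows, 38.6% held a hypoxia core, 10.2% an antioxidant element, 7.02% a STAT site and 6.75% an AP-1 site.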

How the data were processed

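RNA was measured in 6 retinal libraries, 3 per group, as given by the sample titles. The authors aligned the reads with STAR 2.7.9a and deposited 1 table of raw gene counts, whole numbers with no normalization. The submitters' processing notes name GRCm38 and the study's methods a later Ensembl release, and the strand setting of the counts is not given in the sources used here. Symbols of 32158 genes, positions and lengths came from GENCODE M21 (GRCm38) by gene identifier.

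The 10 genes and all gene lists were chosen with earlier results of these data known. Counts were scaled by TMM and tested with the quasi-likelihood test of edgeR 4.0.16 in R 4.3.3 over the 20021 genes with a total of at least 10, with Benjamini-Hochberg adjustment over all of them. A gene was called when its log2 fold change exceeded 0.5 in size with an adjusted p under 0.05. The code was tested on simulated counts. Named genes are the 10 genes, every called gene of the other lists, the 3 most abundant of each list, the 3 nearest profiles of Hmox1 and Cp, and markers; exceptions are marked where they stand, and 1 gene that the rule names is not reported here. Alternatives were DESeq2 1.42.0, limma 3.58.1 on log2(CPM + 0.5), median-of-ratios scaling, other filters, a replicate block, no minimum fold and leaving out each library. No 2 libraries of the same group agreed within counting noise. With 3 libraries per group, an exact test of a single value cannot give a p under 0.1.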

Additional observations from a re-analysis of the deposited data

How the results depend on the processing

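Over 12 alternative settings, none of the 10 genes changed the sign of its log2 fold change, and each moved by less than 1 SD between libraries. Hmox1 lay between -2.25 and -2.12, Cp between -0.68 and -0.59, Tfrc between 0.47 and 0.60 and Slc40a1 between -0.68 and -0.32. Hmox1 and Cp were past the thresholds in every setting, and Tfrc in all but 2, those that left out OIR-CIH replicate 1 or OIR-Norm replicate 3, where its fold was under the minimum; since these genes were selected on this contrast, this describes the values and is no independent sign of stability.

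Over all genes, 63 were called, 43 lower and 20 higher. Keeping every gene with at least 1 count gave 213 (153 lower, 60 higher) and DESeq2 gave 135 (101 lower, 34 higher), each with all 63 among them; the cause was not tested. Leaving out each library gave 35 to 104 genes, 24 to 88 lower and 11 to 33 higher, the lowest total being that without OIR-CIH replicate 1 and the highest that without OIR-Norm replicate 3, while 33 higher genes were called without OIR-Norm replicate 1. Of the other heme and iron genes, 1 was called instead of 2 with a filter of 1 CPM in 3 libraries, which removed Steap4 from the test, and 1 to 2 when each library was left out, where Slc25a37 remained each time. Replicate numbers showed no clear pairing of the samples, as same-numbered libraries deviated from their group means with correlations of 0.162, 0.143 and -0.238. Libraries of unlike number had correlations from -0.404 to 0.224. With 3 libraries per group, these values cannot decide whether same-numbered libraries were handled together. With the replicate block 84 genes were called, 52 lower and 32 higher, 60 of them shared with the fit without it. Depth limits Steap4 and, among the 10 genes, Blvrb, whose lowest count was 97.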
